A study of Mus musculus with 2 samples.

Results

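Cells that met a rule for fibroblasts of the Mfap5 and Pcolce2 type made up 458 of the 10256 cells kept in the library labelled Con (4.47%, 95% exact interval 4.07 to 4.88). Mfap5 was found in 424 of these 458 members and Pcolce2 in 117. A sub-cluster of 25 members, described below, did not bear out this type. In the library labelled SMA, 19 of 13296 kept cells met the same rule (0.143%, 0.0861 to 0.223). The cells were chosen on measured genes. A kept barcode, with 200 to 4000 genes and under 10% mitochondrial UMIs, had to hold a UMI (a tag of 1 captured RNA molecule) in 2 or more of Col1a1, Col1a2, Col3a1 and Dcn. It also had to hold one in 2 or more of Mfap5, Pcolce2, Timp1, Efemp1, Tnxb, Ly6a, Cd34, Serpinb2, C1qtnf3 and Cilp, here called the marker genes. At most 1 of the meningeal genes Dlk1, Aldh1a2, Edn3, Wif1 and Wnt4 was allowed, and at most 1 of Cldn5, Cx3cr1 and Kcnj8, genes of endothelial cells, microglia and pericytes. The levels of these genes and the difference in cell number between the libraries belong to that choice, so they are described without a test.

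Single-cell RNA sequencing was done on whole spinal cords of FVB mice at postnatal day 4. The SMA animals were mSmn-/- with hSMN22tg/0, the severe Taiwanese model of spinal muscular atrophy, in which the mouse Smn gene is disrupted and a human SMN2 transgene remains. The Con animals were mSmn+/- littermates with the same hSMN22tg/0 transgene, so the controls also carried 1 disrupted Smn allele. Per the study's methods 3 littermates were pooled into each library after trypsin and collagenase II digestion, which leaves 1 library per group and no replicate. Each interval below therefore covers counting error only, and fewer cells of a type cannot be told apart from cells lost or missed in 1 library.

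Fibroblasts make the collagen-rich matrix of connective tissue. In the spinal cord they lie in the meninges, the nerve root sheaths and the adventitia, the outer coat of larger vessels. Mfap5 encodes a glycoprotein of elastin-associated microfibrils, Pcolce2 an enhancer of procollagen C-proteinase, Timp1 an inhibitor of matrix metalloproteinases, Efemp1 the fibulin-3 matrix protein and Tnxb tenascin-X. Fibroblasts that combine such genes with the surface proteins Ly6a, Cd34 and Pi16 are known from the adventitia and fascia of many organs.

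Cell barcodes were shared between the libraries, and the deep members differed in this from other deep cells. Of all barcodes, 8163 were listed in both libraries, and in the Con library the cells at such barcodes were mostly deep. In the library labelled SMA they were not, and 0 of the 9 SMA cells of the rule with 5000 or more UMIs had a shared barcode, against 6 of 6 with 1000 to under 2000. Among cells of 5000 or more UMIs, the barcode was also listed in the library labelled SMA for 141 of 141 meningeal fibroblasts of the Con library (100%, 97.4 to 100). The same held for 5606 of 5610 other kept Con cells (99.9%, 99.8 to 99.98) but for only 24 of 92 members (26.1%, 17.5 to 36.3). Over the whole Con library, 73 barcodes of this depth were listed there alone, 69 of them passed the collagen and the marker conditions, and 68 were members. Below 4000 UMIs, where most members lay (46, 94, 104 and 80 by steps of 1000 UMIs), sharing was rare in members (0 to 2.17% by depth) and in other kept Con cells (0.675 to 4.04%) alike. Over all depths, 429 members had an unshared barcode and 29 a shared one. The SMA copies of these 29 barcodes had a median of 17.4% of the UMIs of their Con counterparts (11.6 to 506.8%), 26 were kept cells there and 0 met the rule. Whether a shared barcode is 1 cell counted in both libraries was not tested, and this bears on the shares of kept cells above and on every comparison with cells of shared barcodes below. Among kept cells without a shared barcode, the rule was met by 429 of 3689 Con cells (11.6%) and 11 of 6787 SMA cells (0.162%). Most results are therefore given for all 458 members and for the 429 with unshared barcodes (unshared members).

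**Figure D1:**
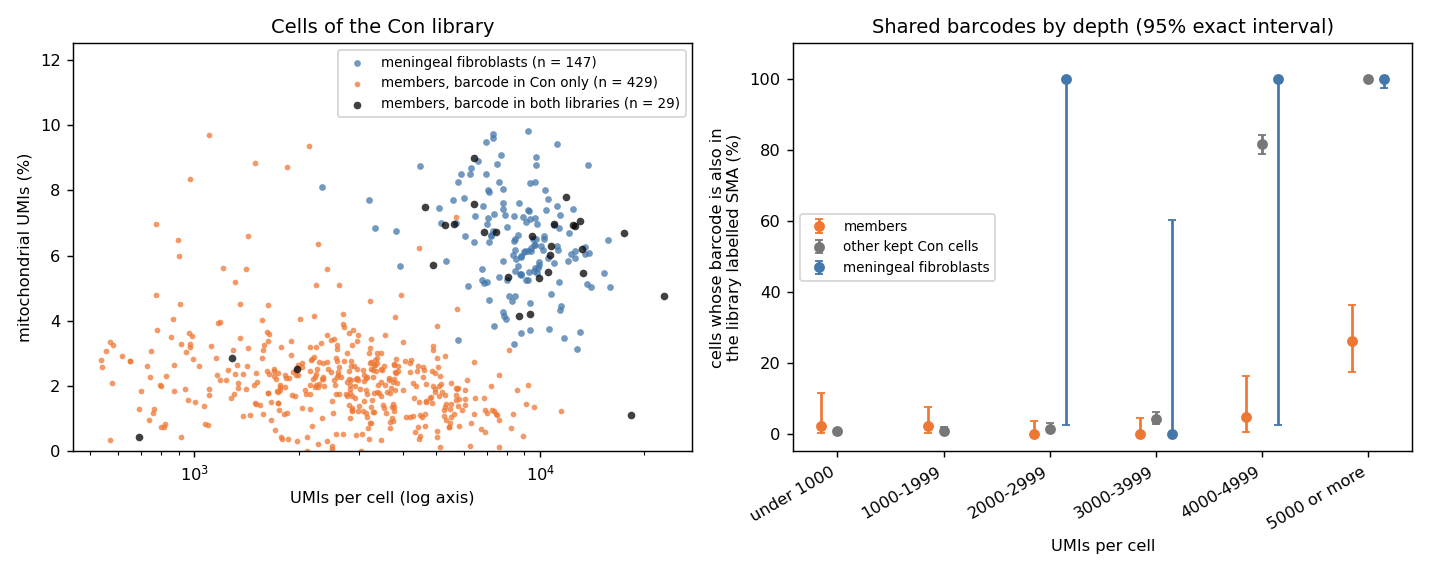
Left, UMIs per cell (log axis) against the mitochondrial share in percent, 1 point per cell of the Con library; right, the percentage of cells whose barcode is also in the library labelled SMA, by UMIs per cell, with 95% exact intervals. Most of the 429 unshared members lie below the 147 meningeal fibroblasts in both UMIs and mitochondrial share, most of the 29 shared members lie among the meningeal fibroblasts, and at 5000 or more UMIs 26.1% of members against 100% of meningeal fibroblasts have a shared barcode.

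The shared and the unshared members differed in the rule's own genes. Of the 429 unshared members, 382 had UMIs in all 4 collagen genes of the rule, 425 had none in the meningeal genes, and 345 had 4 or more of the 10 marker genes. Of the 29 shared members, 18 had only 2 marker genes. Among the 19 SMA cells, the 8 with a shared barcode and 8 of the 11 without one also had 2 marker genes, and 10 of the 19 held a UMI of a meningeal gene. With 5 or more marker genes required, 233 Con cells (2.27%, 1.99 to 2.58) and 0 of 13296 SMA cells remained, and a count of 0 allows a share of up to 0.0226% (3 counts of the total, with an exact upper limit of 0.0277%).

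Just inside the rule, the 38 Con cells with 2 marker genes included 18 with a shared barcode and 9 with Cldn5. Just outside it, 73 of 93 Con cells with 1 marker gene had a shared barcode, and their median mitochondrial share was 6.71%, against 4.21% at 2 and 2.36% at 3 marker genes. In the library labelled SMA, 86 cells had 1 marker gene and 16 had 2. When each cell was thinned to 1000 UMIs and the shallower cells (1379 Con, 1392 SMA) were left out, 381 of 8877 Con cells (4.29%, 3.88 to 4.73) and 3 of 11904 SMA cells (0.0252%, 0.0052 to 0.0736) met the rule.

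The marker genes were present to very different degrees. Mfap5 (chromosome 6, 122505845 to 122529290, GRCm38) had a UMI in 415 of 429 unshared members (96.7%), with a median of 9 and a maximum of 51 UMIs per cell, and a summed level of 3497 CPM (UMIs of the gene scaled to a class total of 1000000, 3397 to 3599). In the Con meningeal fibroblasts Mfap5 stood at 209.5 CPM, and in other Con cells with shared barcodes, outside the fibroblasts, it was at 0.91 CPM. Ly6a, a surface protein used to mark stem-like and adventitial cells, was found in 93.2% of unshared members, and Timp1 in 81.6%, where a single cell held up to 364 UMIs. Pcolce2 (chromosome 9, 95637601 to 95698096) was sparse, with 176 UMIs over 114 unshared members (26.6%), against 1 UMI in the meningeal fibroblasts. At 1000 UMIs per cell Pcolce2 was found in 11.98% of 384 unshared members, 0% of 147 meningeal fibroblasts and 1.03% of 6002 other Con cells. Efemp1, Tnxb and Cd34 each had a UMI in 37.1 to 39.9% of unshared members, Serpinb2 in 23.1%, C1qtnf3 in 21.0% and Cilp in 13.1%. Mfap5, Ly6a and Timp1 were thus common to most unshared members, while each of the other markers was found in a minority.

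The 19 SMA cells of the rule carried these genes at lower levels. Mfap5 was found in 12 of the 19 at 399.98 CPM (301.3 to 520.6), Timp1 in 10, and Pcolce2 and Serpinb2 in none, which allows up to 21.8 CPM (3 counts, with an exact upper limit of 26.8 CPM). Ptgds, the prostaglandin D2 synthase of the leptomeninges, stood at 88228 CPM in these cells, all of it in 2 of the 19, and at 13686 CPM in the SMA meningeal fibroblasts, where 12 of 100 cells held it. It had no UMI in the 458 Con members.

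Levels of genes outside the rule, and quality values that the rule used only as limits, also differed between unshared members and meningeal fibroblasts. The mitochondrial share had a median of 2.07% in unshared members, 6.30% in shared members and 6.33% in meningeal fibroblasts. The depth differed too, with medians of 2804, 9486 and 8781 UMIs. Low depth and a low mitochondrial share were not particular to the members, since 1338 unshared Con barcodes with over 30% ribosomal UMIs had medians of 727 UMIs and 0.148%. Among the 68 unshared members of 5000 or more UMIs the median mitochondrial share was 1.39%, so the low share was also seen in the deepest of them. Haemoglobin RNA, which erythrocytes make in abundance, made up 483 CPM (446 to 522) of unshared members, 101836 CPM of shared members and 14979 CPM of meningeal fibroblasts. A core list of 13 glial genes, among them Fabp7 and Olig1, summed to 148 CPM (128 to 170), 6287 CPM and 2192 CPM in the same order, and to 143 CPM in the 68 deep unshared members. At 1000 UMIs per cell, a UMI of a glial core gene was found in 9.90% of unshared members and in 82.3% of meningeal fibroblasts, and one of a haemoglobin gene in 20.6 and 34.7%. The difference in haemoglobin was thus smaller by cells at equal depth than by summed level. Low haemoglobin was not particular to the members. In the 53 unshared meningeal fibroblasts labelled SMA it stood at 486 CPM (427 to 550), with a UMI in 20.8% of cells at 1000 UMIs. The glial core list was at 4294 CPM there. The part of these library features in the gene differences below was not tested.

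Xist, which is transcribed from the inactive X chromosome of female cells, was found in 242 of 429 unshared members at 306 CPM (277 to 337). Ddx3y, Eif2s3y, Kdm5d and Uty, genes of the Y chromosome, summed to 1 UMI over those 429 cells (0.752 CPM, 0.019 to 4.19). In the meningeal fibroblasts Xist was at 52.0 CPM and the 4 Y genes at 121 CPM, with a Y gene in 87 of 147 cells. Shared members carried both, with Xist at 306 CPM and the Y genes at 65.5 CPM. The unshared members thus held Xist and almost no Y-linked RNA, while the meningeal fibroblasts held more Y-linked RNA than Xist.

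Smn1, the targeted gene, had 56 UMIs in the unshared members (42.1 CPM, 31.8 to 54.7) and 55 UMIs in the meningeal fibroblasts (42.1 CPM, 31.7 to 54.7). Over all kept cells it stood at 47.6 CPM (45.8 to 49.4) in the library labelled SMA and at 43.0 CPM (41.4 to 44.7) in the library labelled Con. The gene count was thus not lower in the library labelled SMA. Whether the counted 3′ ends lie outside the disrupted part was not given in the sources used here, so Smn1 does not check the labels.

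Some unshared members also carried neuronal RNA. Stmn2, which encodes a microtubule regulator of growing neurons, was found in 81 of 429 unshared members at 453 CPM (417 to 491), and the transcription factor Mycn in 66 at 114 CPM. Both genes lead a group of Con barcodes with over 30% ribosomal UMIs, where they stood at 15340 and 3956 CPM. There were 3.88 Stmn2 UMIs per Mycn UMI in that group (3.75 to 4.01) and 3.99 in the unshared members (3.33 to 4.80), against 5.82 (5.18 to 6.55) in other Con cells with shared barcodes. The value of 3.99 was not uniform across the unshared members. The 68 deep unshared members had 191 Stmn2 UMIs (442 CPM, 381 to 509) and 24 Mycn UMIs (55.5 CPM, 35.6 to 82.6). Mycn was thus lower in them than over all 429, while Stmn2 stood at a similar level. In the meningeal fibroblasts Stmn2 had 12 UMIs and Mycn 3, a ratio of 4.00 (1.08 to 22.1). Rpl39l, a ribosomal protein gene also high in the high-ribosome barcodes, had 181 UMIs in the unshared members beside 602 of Stmn2. In the high-ribosome barcodes it had 2863 beside 17037, so Rpl39l did not keep the same proportion to Stmn2. Tfap2b, a transcription factor of sympathetic neurons, had 19 UMIs in the unshared members, none in the meningeal fibroblasts, and 562 in the high-ribosome barcodes. Beside the same Stmn2 counts, Tfap2b stayed near a single proportion. Where this RNA came from was not tested.

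The transcriptome of the members was then set against that of the 147 meningeal fibroblasts of the Con library, which pass the collagen condition and hold 2 or more of the 5 meningeal genes. Of these, 143 had a shared barcode and 65 also held 2 or more marker genes. UMIs were summed over each class, and a gene was called when its CPM differed at least 4-fold. Among 3677 genes with 100 or more UMIs over both classes, 243 (6.61%) were called higher in the members and 152 (4.13%) lower, and the median log2 ratio was -0.02. A gene near 0 in 1 class reached this minimum through the other class, which fixed its direction, and 17 of the higher genes had no UMI in the meningeal fibroblasts and 2 of the lower genes none in the members. The counts of called genes, here and in the lists below, include such genes. The conditions of the rule fix part of this, and without the rule's own genes 232 and 147 of 3657 genes were called. With the unshared members alone, 252 of 3393 genes (7.43%) were called higher and 204 (6.01%) lower, of which 232 and 140 were called the same way for all members.

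The 12 genes of highest ratio outside the rule had varied roles. Ly6c1, a surface protein related to Ly6a, had 2449 UMIs in the members and 5 in the meningeal fibroblasts, a log2 ratio of 8.64 (7.42 to 10.27). Cfb, complement factor B, had 462 against 1 (8.56, 6.07 to 13.86), and C3, the central complement protein, 545 against 2 (7.80, 5.94 to 10.84). Ptx3 and Saa3, acute-phase proteins, had 986 against 3 and 754 against 5. Cfb was found in 45.9% and Ptx3 in 48.3% of members, so their UMIs did not come from a few cells, while Saa3 was found in 16.6%. Thy1 (602 against 3), a surface glycoprotein of fibroblasts and neurons, Thbs1 (855 against 3), the adhesive protein thrombospondin-1, and Col5a3 (430 against 2), a fibrillar collagen chain, were also among the 12. The others of the 12 highest were Gm12840, a long noncoding RNA, Fabp4, a fatty acid carrier of adipocytes and endothelium, Ifi202b, an interferon-induced gene, and Apbb1ip, an adaptor of integrin activation. Fabp4 was found in 18.3% of members, all of them unshared.

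Of the 12 genes of lowest ratio, Ptgds, Slc6a13, Igf2 and Slc7a11 belong to the list of meningeal genes. Ptgds had 0 UMIs in the members and 640 in the meningeal fibroblasts, at least 262-fold lower, but its UMIs lay in 3.40% of the meningeal fibroblasts, and without the comparator cells that held 2 or more marker genes its log2 ratio went from -8.03 to -1.21, under 4-fold. Against the unshared meningeal fibroblasts labelled SMA it was -13.06. Slc6a13, a GABA and betaine transporter, had 25 UMIs in the members, all of them in shared members, against 1102, and Igf2, the imprinted growth factor, had 53, again all in shared members, against 1404. They were found in 93.9 and 92.5% of meningeal fibroblasts and had no UMI in the 429 unshared members. Slc7a11, the cystine transporter, had 2 against 290, A2m, a protease inhibitor, 15 against 1214, and Col13a1, a transmembrane collagen, 7 against 267. Notum, a Wnt-inactivating enzyme, had 10 against 422. Lamc3, Sidt1, Kcnk2, Tmem132c and Cmbl completed the 12, with 2 to 7 UMIs against 100 to 168.

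**Figure D2:**
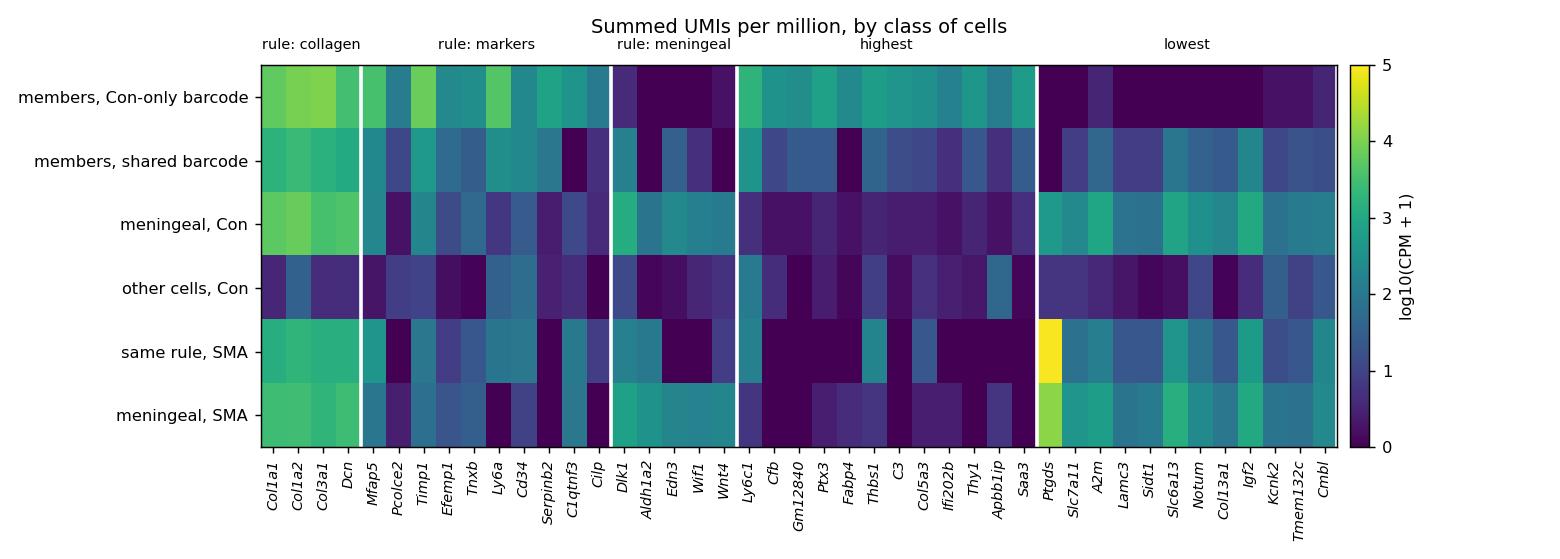
Summed level as log10(CPM + 1) for the genes of the rule and the 12 genes of highest and lowest ratio, in 6 classes of cells. The 12 highest genes are brightest in the unshared members, the 12 lowest are dark there and brighter in both sets of meningeal fibroblasts, and the 19 SMA cells of the rule hold Ptgds at 88228 CPM, from 2 cells.

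Inflammatory mediators were the list with most genes called higher. Of 25 measured genes, 18 were 4-fold or more higher in the members and 2 lower, with a median log2 ratio of 4.15, beside 6.61% higher, 4.13% lower and a median of -0.02 over all genes, which is the background for each list below. For the unshared members 19 were higher and 2 lower, beside 7.43 and 6.01% of all genes. The monocyte attractants Ccl2 and Ccl7 had 2789 against 30 and 2624 against 25 UMIs. The neutrophil attractant Cxcl1 had 3209 against 147, and Cxcl5 391 against 5. Il6 had 102 UMIs in the members and none in the meningeal fibroblasts, a ratio of at least 27.7, and it was measured through the members alone. Ptgs2, the inducible cyclooxygenase, had 367 against 10, Has1, a hyaluronan synthase, 329 against 3, and Tnfaip6, which binds hyaluronan, 1704 against 65. Cxcl12 and Cxcl16 went the other way, with 436 against 2434 and 60 against 1021. Of the 8 measured complement genes outside the rule, 6 were higher and 1 lower, the higher ones including C4b (473 against 10) and C1s1 (176 against 15).

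To show what the promoters of these genes hold, RefSeq windows from 250 bases before to 50 bases after the start site (GRCm38.p6) were searched on both strands for an NF-kappaB motif of 10 letters, spelled GGGA, then any base, then TTTCC. It was found in 5 of 27 windows of the inflammatory list (24 genes with a window) and in 135 of 32851 windows of all genes (0.411%), and in none of 8 windows of the complement list. The windows of Cxcl1 (chr5:90890995-90891294, plus strand) and Il6 (chr5:30012864-30013163, plus strand) are printed 5′ to 3′ as examples of listed genes whose window holds the motif, with it in capitals, starting 71 and 44 bases before the start site.
Cxcl1: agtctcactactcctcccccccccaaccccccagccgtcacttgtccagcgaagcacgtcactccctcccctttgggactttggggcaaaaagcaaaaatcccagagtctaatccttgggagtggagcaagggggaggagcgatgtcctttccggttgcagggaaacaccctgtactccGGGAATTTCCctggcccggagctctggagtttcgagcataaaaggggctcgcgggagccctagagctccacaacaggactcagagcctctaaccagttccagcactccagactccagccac
Il6: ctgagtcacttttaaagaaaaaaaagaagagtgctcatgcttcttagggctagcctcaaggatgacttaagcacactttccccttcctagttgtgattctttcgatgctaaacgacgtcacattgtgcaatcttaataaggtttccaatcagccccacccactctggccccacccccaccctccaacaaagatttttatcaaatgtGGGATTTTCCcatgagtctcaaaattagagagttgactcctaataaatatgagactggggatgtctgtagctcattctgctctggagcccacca
The other windows with the motif belong to Cxcl2 (1106 against 68 UMIs, called higher), Csf1 and Nfkbia, which stayed under 4-fold (log2 ratios 1.55 and 1.89), though Nfkbia passed it in the unshared members (2.08). A match is a description of the letters and not of binding.

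The list of adventitial-type fibroblast genes had 15 of 30 measured genes called higher and 1 lower outside the rule, with a median of 2.08, beside 6.61% and 4.13% of all genes. Pi16, a marker of adventitial fibroblasts, had 1470 against 208 UMIs and was also present in the meningeal class. Sfrp2, a Wnt modulator, had 1141 against 54, Gpx3, a secreted peroxidase, 1547 against 23, Fn1, fibronectin, 3273 against 85, and Prss23, a secreted protease, 837 against 13. Islr, a cell-surface leucine-rich protein, was the gene called lower (168 against 910). Clec3b (210 against 649) and Dpt (607 against 294), further genes of this list, stayed under 4-fold.

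Matrix genes were divided. The fibrillar collagens Col5a1 (833 against 269 UMIs) and Col5a2 (1429 against 400) stayed under 4-fold. Outside the rule, 3 of 17 measured collagens were higher (Col5a3, Col12a1, Col14a1), 3 lower (Col13a1, Col18a1, Col26a1) and 11 in between (3 higher and 4 lower for the unshared members). Of 15 elastic fibre genes outside the rule, Fbn1 (1130 against 129 UMIs), Ltbp2 and Emilin2 were higher. Eln, elastin itself (246 against 1356), Mfap2, Mfap4 (1004 against 9027), Fbln1 and Fbn2 were lower. The list of collagen processing genes (hydroxylases, cross-linking enzymes, chaperones and procollagen proteinases) had 5 of 17 measured genes called higher and 0 lower, namely P4ha2, P4ha3, Plod2, the lysyl oxidase Lox (1071 against 150) and Loxl2, and 6 higher for the unshared members.

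Among proteoglycans, Aspn (730 against 8), Prg4, the joint lubricin (266 against 0, at least 72.3-fold), Prelp and Ogn were called higher, 4 of 9 measured outside the rule (4 of 8 for the unshared members). Of 21 proteases and inhibitors measured outside the rule, 4 were higher, 2 lower and 15 in between, with a median of 0.06. One of the higher ones, the matrix metalloproteinase Mmp3, had 332 UMIs against 0 (at least 90.2-fold) and was measured through the members alone. The 10 measured genes of the cell cycle list included 0 called in either direction, with a median of 0.55, and 6 of 22 immediate early and stress genes were higher and 0 lower. In that last list the metallothionein Mt1 had 3764 against 372 UMIs, while Fos (2751 against 1921) and Jun (1834 against 1279) were close in CPM.

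**Figure D3:**
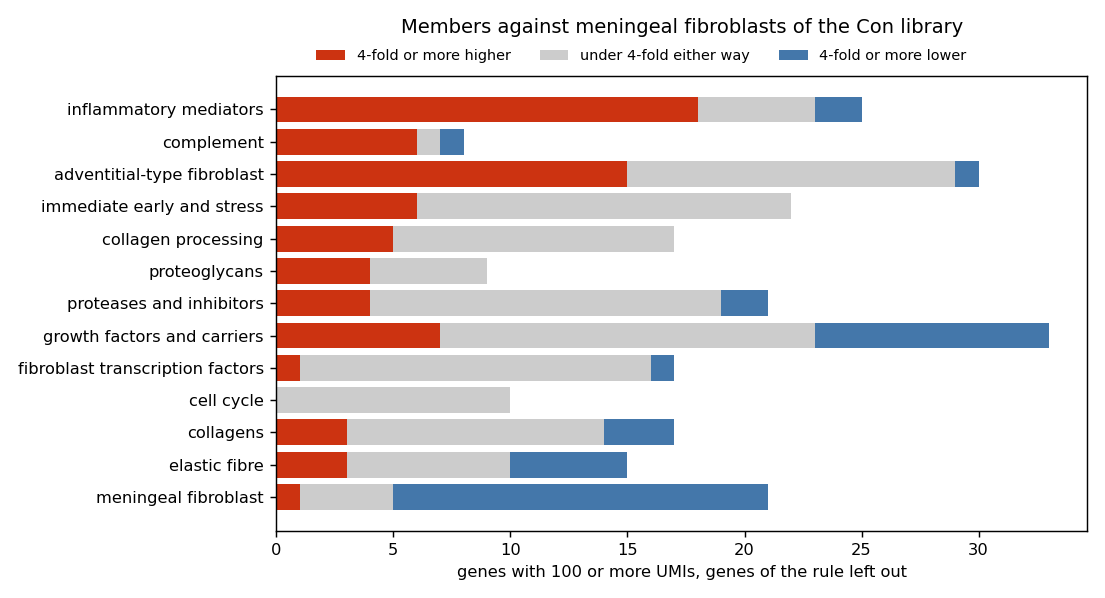
Number of measured genes per list that are 4-fold or more higher, under 4-fold, or 4-fold or more lower in the 458 members than in the 147 meningeal fibroblasts, with the genes of the rule left out. Inflammatory mediators have 18 of 25 genes higher, the meningeal list has 16 of 21 lower, and the elastic fibre list has 3 higher and 5 lower.

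The list of meningeal fibroblast genes had 16 of 21 measured genes called lower outside the rule, beside 4.13% of all genes, with a median of -3.71 and of -5.13 for the unshared members. Igfbp2, a carrier of insulin-like growth factors, had 314 UMIs in the members, of which 14 were in unshared members, against 6909. Zic1 and Foxc1, transcription factors of meningeal development, had 40 against 365 and 14 against 114 UMIs. Spp1, the secreted protein osteopontin, was the gene of this list called higher (1667 against 176), and 20.0% of the cells of the largest sub-cluster below held it.

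Transcription factors of position were mostly too low for the comparison. Of 49, the 3 that reached 100 UMIs (Zic1, Foxc1 and Tbx18) did so through the meningeal fibroblasts, so their direction was fixed by that minimum, and others are given as counts only. En1 had 54 UMIs in the unshared members and Tbx15 17, and both had none in the meningeal fibroblasts, which allows up to 2.29 CPM there (3 counts), and none in the shared members. Gata6 had 16 against 1. En1, Tbx15 and Gata6 are known from dermal or visceral mesenchyme, but they are only 3 of the 49. The list as a whole went the other way, with 203 CPM in the unshared members and 619 CPM in the meningeal fibroblasts. Where the members came from was not tested. En1 was at 0.19 CPM in other Con cells with shared barcodes.

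Hox genes, which are transcribed in a nested order from head to tail, differed by paralog group. Genes of groups 9 to 13, which are used in the lower trunk and tail, summed to 21 UMIs in the 429 unshared members (15.8 CPM, 9.78 to 24.1) and to 588 UMIs in the meningeal fibroblasts (449.6 CPM, 414.0 to 487.5), which is 28.5-fold lower (18.4 to 46.3). Of these 21 UMIs, 18 were of Hoxc9. Genes of groups 1 to 8 summed to 289 UMIs in the unshared members (217 CPM, 193 to 244) and to 468 in the meningeal fibroblasts (358 CPM, 326 to 392), 1.65-fold lower (1.42 to 1.91). Among single genes, Hoxc10 had 2 UMIs in the unshared members against 178, Hoxa9 0 against 100 and Hoxb9 0 against 84. Hoxb2 (76 against 66), Hoxc4 (23 against 13), Hoxc6 (30 against 39) and Hoxa5 (20 against 29) had ratio intervals that included equality. Of the 20 Hox genes with 20 or more UMIs, 12 had an interval below equality for the unshared members and 0 had one above. The 29 shared members held 79 UMIs of groups 9 to 13 (287 CPM, 228 to 358) against 21 in the 429 unshared ones, so over all 458 members the groups were 7.21-fold lower (5.83 to 9.01). Other Con cells with shared barcodes were at 236 CPM for groups 9 to 13.

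**Figure D4:**
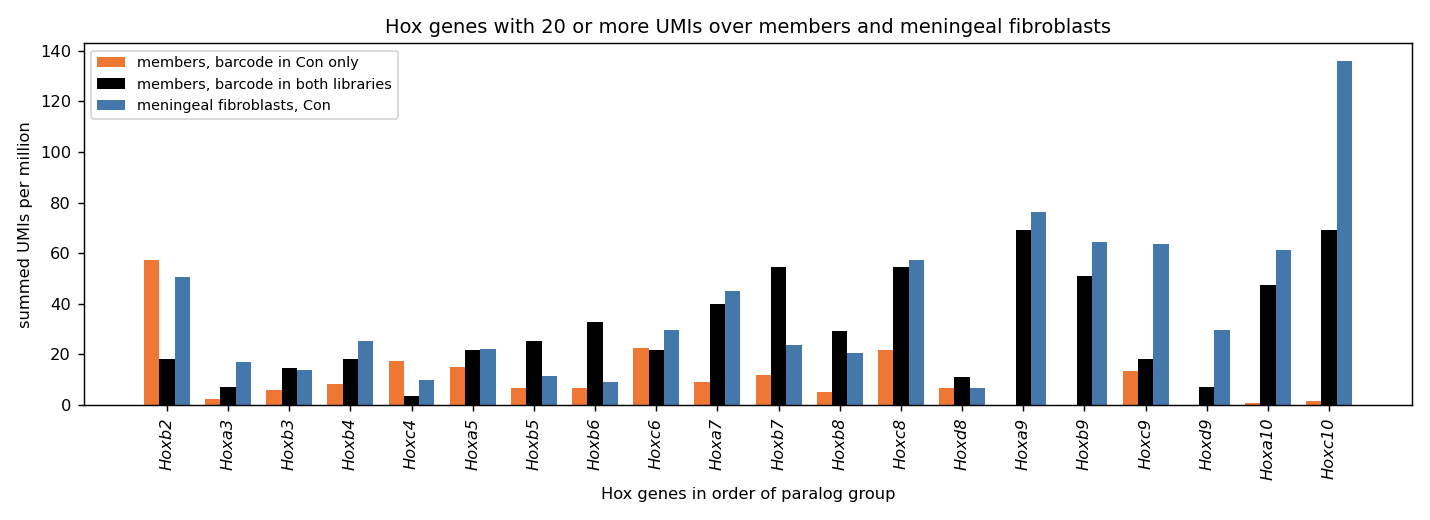
Summed level in CPM of the 20 Hox genes with 20 or more UMIs, in order of paralog group, for unshared members, shared members and Con meningeal fibroblasts. Unshared members are at or near 0 for Hoxa9, Hoxb9, Hoxd9, Hoxa10 and Hoxc10, where the other classes have bars, and hold Hoxb2 at 57.2 CPM.

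Markers of other tissues differed by list. The 18 skeletal muscle genes summed to 55 UMIs over 458 members (34.3 CPM) and 40 in the meningeal fibroblasts (30.6 CPM), and the 8 epithelial genes to 42 and 76 UMIs. The 10 tendon genes summed to 1560 CPM in the members against 701 CPM, the 20 cartilage and bone genes to 1120 against 388 CPM, and the 9 adipose genes to 360 against 64.2 CPM. Most of the cartilage and bone sum was Spp1 (1667 of 1796 UMIs), and most of the adipose sum was Fabp4 and Lpl (327 and 220 of 578), while Acan, a cartilage proteoglycan, and Adipoq, an adipocyte hormone, had no UMI in the members. The 13 mural genes stood at 3171 against 3294 CPM, with the contractile gene Acta2 higher (2647 against 408 UMIs) and Rgs5, a pericyte marker, lower (28 against 394). The endothelial list of 12 genes stood at 1780 CPM in unshared members, but 2345 of its 2366 UMIs were of Ly6c1, and Cldn5 had 1, Cdh5 0 and Emcn 0. In the 29 shared members Cldn5 had 244 UMIs and the nerve sheath list stood at 8230 CPM. Of 20 leucocyte genes, Cd3e, a T cell receptor component, had 103 UMIs in the unshared members and none in the meningeal fibroblasts. Other defining leucocyte genes were low there, with Tyrobp at 24.1 CPM against 494 CPM in other Con cells.

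Clustering the 458 members on their own gave 4 sub-clusters at a resolution of 0.3 and at 0.2, but 6 at 0.5, where the largest fell from 190 to 122 cells. The 4 are described by their leading genes without a test, since those genes made them. The first held 190 cells (median 3768.5 UMIs) and was led by Serpinb2, the chemokine Cxcl5 and Inhba, the activin A subunit, with the lactate transporter Slc16a3 and Bnip3, a mitophagy receptor induced by low oxygen. Serpinb2 was found in 48.4% of its cells and in 4.76% and 0% of the next ones, and Timp1 reached 10827 CPM.

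The second held 168 cells (median 1969 UMIs), led by Igfbp5, Pi16 and Cd55, with Tnxb in 72.0% of cells, Efemp1 in 60.1%, Cd34 in 62.5% and Pcolce2 in 40.5%. The third held 75 cells (median 2849 UMIs) and was led by Fmod, a collagen-binding proteoglycan, C1qtnf3 (1912 CPM), Thbs4 and Mgp, an inhibitor of calcification at 3147 CPM. It also held the contractile genes Acta2 and Tagln at 5207 and 4189 CPM, against 172 and 118 CPM in the second.

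The fourth was made up of 25 cells, all 25 with a shared barcode (median 9942 UMIs). Among its leading genes were Cldn5 of endothelium and Gfap and Fabp7 of glia. It had a median of 2 marker genes, and so did not bear out the name of the rule. It is left unnamed. Ccl2 was found in 78.9, 56.5 and 45.3% of cells of the first 3 and had 0 UMIs in the fourth, and Cxcl1 was found in 88.4, 60.1, 41.3 and 28% of cells of the 4. Cxcl2 (52.1, 22.6 and 10.7% of the first 3) and Cxcl5 (32.6, 1.19 and 2.67%) were found mostly in the first.

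**Figure D5:**
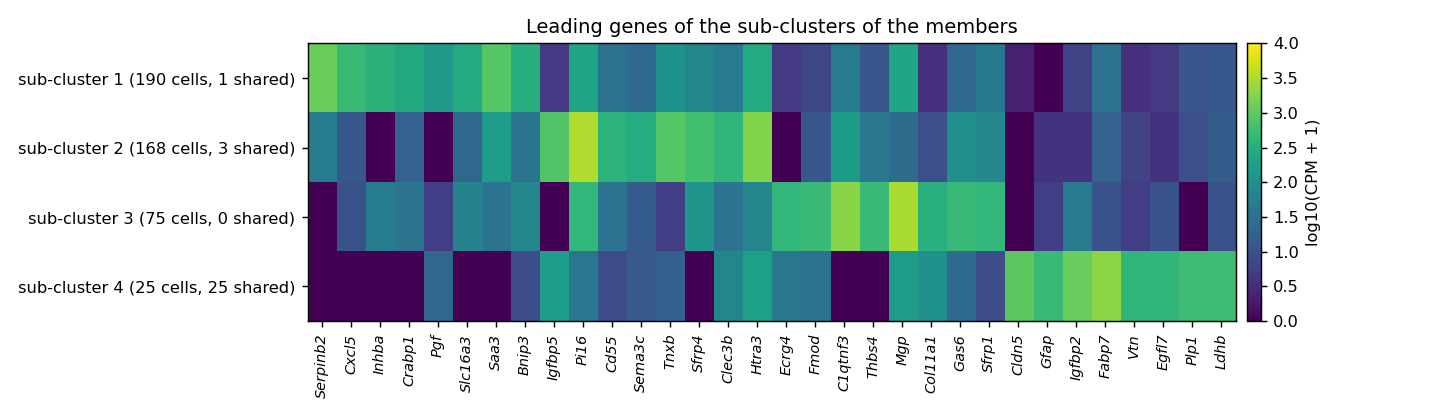
Summed level as log10(CPM + 1) for 8 of the leading genes of each of the 4 sub-clusters of the members. Each block of leading genes is brightest in its own sub-cluster, and the fourth, whose 25 cells all have shared barcodes, has Cldn5 and glial genes among them.

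Within the 429 unshared members, pairs of the rule's marker genes are described by the cells that held both, beside the product of their shares. Since the cells were chosen for holding 2 or more of these genes, the product is not the value for unrelated genes. Tnxb and Cd34 were found together in 104 cells, 1.64 times the product of their shares, and Efemp1 and Tnxb in 103 (1.63 times). C1qtnf3 and Cilp were found together in 39 cells (3.32 times). Serpinb2 and C1qtnf3 were found together in 2 cells where the product gives 20.8, and Tnxb and C1qtnf3 in 11 where it gives 35.9. Serpinb2 and Tnxb, by contrast, were found together in 34 cells, where the product gives 39.5.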

How the data were processed

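The deposited files hold counts of UMIs for each gene and barcode. The authors made them with Cell Ranger (4.0.0 per the file headers; another version in the study's methods) and build mm10 per the submitters' processing notes. They are filtered to cells but not by gene number or mitochondrial share. The study's limits on gene number and mitochondrial share were applied here, but not its removal of a cluster of over 30% ribosomal UMIs or of rarely detected genes; doublets were treated by the limit of 4000 genes and the condition on Cldn5, Cx3cr1 and Kcnj8, and no caller was run. The members and gene lists were chosen with earlier results of these data known. Named genes were the 12 of highest and lowest log2 ratio outside the rule, the rule's genes, listed genes, Hox genes with 20 or more UMIs, and Smn1; genes named outside this rule, such as those of sub-clusters, Stmn2 and Mycn, were chosen after their values were seen.

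UMIs were summed per class and scaled to CPM; a class at 0 was set to 3 counts for a ratio. Intervals are exact at 95% (Clopper-Pearson, Poisson, conditional binomial). With 1 library per group and cells that are not replicates, no p-value was computed. The ratio step was checked on simulated counts. Sub-clusters came from Leiden clustering (scanpy 1.11.5, 1500 variable genes, 15 components, 15 neighbours, resolution 0.3). Thinning drew 1000 UMIs per cell. Gene positions are from GENCODE M21 (GRCm38), which matched 32158 of 32285 identifiers, and promoter windows from RefSeq. Python 3.11.15, numpy 2.4.6 and scipy 1.17.1 were used. Alternatives changed the limits, the gene conditions, the weighting, the UMI minimum, the comparator and the shared barcodes. A few genes are not reported here.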

Additional observations from a re-analysis of the deposited data

How the results depend on the processing

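The count of 458 members stayed within 1.5 times under all 9 alternatives for the Con library. Its share moved to 2.52% with a mitochondrial limit of 20%, 5.37% with 1 marker gene, 5.02% without barcodes over 30% ribosomal and 11.6% without shared barcodes. The 19 SMA cells became 3 (0.0226%) with 3 marker genes, 105 (0.790%) with 1 marker gene, 9 (0.0677%) without any meningeal gene and 11 without shared barcodes. When thinned, 3 SMA cells (0.0252%) met the rule, of which 1 was among the 19. The share of members with a shared barcode was 6.33%, and 2.62% with 3 or more marker genes. Genes called higher and lower were 370 and 240 at a minimum of 50 UMIs and 115 and 62 at 300, because more or fewer genes were measured. Lower genes were 99 without comparator cells that held 2 or more marker genes and, in an alternative chosen after seeing the data, 96 against the unshared meningeal fibroblasts labelled SMA. Without shared barcodes in both classes, 4 comparator cells remained and 85 and 48 genes were called; there most highest genes had no comparator UMI and were set to 3 counts, and the log2 ratios of Ifi202b and Apbb1ip turned to -0.43 and -0.78. In all, 156 of 168 alternative log2 ratios of the 24 genes kept their direction at 4-fold or more. With the unshared members alone, also chosen after seeing the data, called-lower genes of the glial core rose from 1 to 7 and of haemoglobin from 0 to 3, glial core RNA fell from 1200 to 148 CPM, haemoglobin from 17849 to 483 CPM and Y genes from 11.8 to 0.752 CPM, while Stmn2 went from 399 to 453 CPM. No paired analysis was possible because each group is 1 library. Depth limits the low genes: 3 counts are 2.26 CPM in the unshared members and 21.8 CPM in the 19 SMA cells.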
